A study of Mus musculus with 6 samples.

Results

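Integrins are the receptors by which cells hold on to the matrix and to each other, and laminins are the trimeric glycoproteins of the basement membrane that many of them bind. The genes described here were all those with an integrin alpha or beta symbol or a laminin alpha, beta or gamma symbol among the genes named by a single-gene probe set, which gave 34 of 18193 genes: 24 integrins and 10 laminins. Of the integrins, 6 are chains of white blood cells (Itgal, Itgam, Itgax, Itgae, Itgb2 and Itgb7) and were kept apart from the other 18. Itgad and Itga11 were not analysed here.

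RNA came from the whole uterus of female mice of mixed background, 8 weeks old, that carried the GATA2 f/f allele, for which no recombinase is named. All had lost their ovaries at 6 weeks of age. One group received the vehicle, sesame oil, and the other received 1 mg of progesterone in 100 µl of it, and tissue was taken after 6 h. There were 3 arrays for either treatment, hybridised with RNA that the labels give as a pool of 3 mice. Nothing says that the arrays of a group held separate pools, so p-values measure the spread between these arrays, which may be technical.

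An integrin is a pair of 1 alpha and 1 beta chain, and the pair sets the ligand. The chain beta 4 pairs with alpha 6 alone, binds laminin-332 (a trimer that holds the chains encoded by Lama3 and Lamb3) and anchors it through plectin and dystonin to keratin filaments in the hemidesmosome, the rivet that fastens an epithelium to its basement membrane. Beta 1 pairs with many alpha chains and serves stroma, muscle and epithelium alike, while beta 2 pairs with the alpha chains L, M and X and is found on white blood cells. In the uterus, laminins lie beneath the luminal and glandular epithelium and around vessels and smooth muscle cells, and stromal cells add them when they decidualize.

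Levels are log2 values, and a log2 change is progesterone minus oil. Array medians lay between 5.51 and 5.53, and 3 TrpnX control probe sets, for a bacterial transcript, lay between 2.87 and 3.34 and stand here for background. The treatment was visible on every array in Il13ra2, a decoy receptor and known progesterone target, at 4.97 to 5.70 with oil and 8.56 to 9.35 with progesterone. Gata2, the gene of the floxed allele, was read in both groups, at 10.20 to 10.50 with oil and 10.88 to 11.51 with progesterone. Marker lists of smooth muscle (array means 11.56 to 11.92), endometrial stroma (10.73 to 11.23) and uterine epithelium (9.42 to 10.17) were all well above background. Of the stromal markers 3 of 8 rose (Hoxa10, Hoxa11 and Hand2), where 5.92% of all genes rose, and 5 did not pass. Of these 5, named after their values were seen, Col1a1 (log2 change 0.66) and Vcan (0.16) were higher. Pdgfra (-0.0033), Col1a2 (-0.033) and Dcn (-0.33) were lower. With the mean of probe sets Col1a1 rose (0.86, limma adjusted p = 0.0255) and Dcn fell (-1.23, 0.00169). Of 4 fat cell markers 0 passed (3 lower with the replicate block). Their mean was 5.86 to 6.54 with oil and 4.46 to 5.93 with progesterone. The part of these tissues in the results was not tested. Arrays of 1 group differed in white blood cell transcripts: the mean of 6 general markers was 7.26, 7.89 and 8.94 on oil replicates 1 to 3 and 6.68, 8.69 and 8.97 on progesterone replicates 1 to 3. In the same way S100a8, a neutrophil protein, was between 4.34 and 5.01 on oil replicates 1 and 2 and progesterone replicate 1, and between 11.82 and 12.48 on the other 3 arrays.

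After progesterone the transcripts of the laminin-332 chains Lama3 and Lamb3 and of its receptor chain Itgb4 fell, as did Itga2b, while Lama1 rose. These 5 of 34 genes (1 higher, 4 lower) passed limma with a Benjamini-Hochberg adjusted p under 0.05, beside 11.7% of all genes (5.92% higher and 5.83% lower). The median log2 change of the 34 was -0.10, and that of all 18193 genes was -0.017. In 9 of 34 genes (1 higher, 8 lower) the 3 arrays of one group lay apart from the 3 of the other, against 30.4% of all genes (14.5% higher and 15.9% lower). The share of members that passed was thus near that of all genes. With the replicate number as a block, the count was 1 higher and 7 lower, against 16.1% of all genes (7.6% higher and 8.49% lower), because Itgb5, Lama4 and Lamb2 then passed as well.

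**Figure D1:**
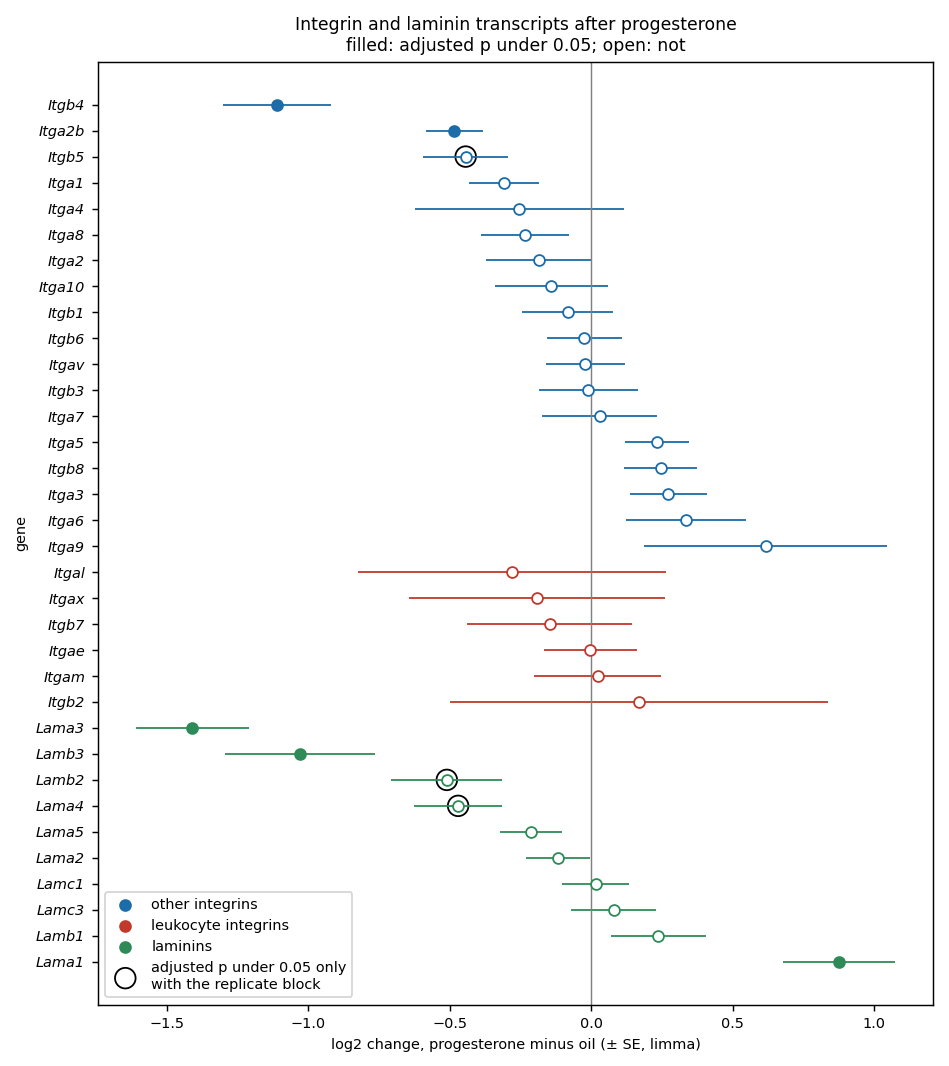
Log2 change (x axis, progesterone minus oil, ± SE from limma) of each of the 34 integrin and laminin genes (y axis), coloured by class, filled where the adjusted p was under 0.05 and ringed where it was so only with the replicate block. Lama3 (-1.41), Itgb4 (-1.11) and Lamb3 (-1.03) lie far to the left of the other genes, Lama1 (0.88) lies to the right, and the leukocyte integrins have open points near 0.

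Among laminin alpha chains, Lama3, the alpha chain of laminin-332, was 8.83, 8.90 and 8.19 on the oil arrays and 7.37, 7.05 and 7.27 on the progesterone arrays. Every progesterone array was below every oil array. The log2 level went from 8.64 ± 0.39 to 7.23 ± 0.16 (SD, n = 3), a 2.66-fold fall (log2 change -1.41 ± 0.20 SE, limma adjusted p = 0.00764), and the call held in 6 of 6 fits without 1 array. Lama1, the alpha chain of the embryonic laminin-111, was near background with oil, at 4.15, 3.56 and 3.71, and at 4.76, 4.93 and 4.36 with progesterone. Its groups did not overlap, and the rise was 1.84-fold (log2 change 0.88 ± 0.20 SE, limma adjusted p = 0.0336). This call ended when any of oil replicates 2 and 3 and progesterone replicates 1 and 2 was left out (adjusted p up to 0.119), and with an offset of 32 before log2 the change was 0.33 (adjusted p = 0.0587).

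The remaining alpha chains did not pass. Lama5, the chief alpha chain beneath mature epithelia, was 8.02, 8.12 and 8.15 with oil and 8.07, 7.82 and 7.76 with progesterone, with groups that overlapped (log2 change -0.21 ± 0.11 SE, limma adjusted p = 0.284). Its other probe set well above background was lower on every progesterone array, at 7.85, 7.92 and 7.99 with oil and 7.74, 7.56 and 7.59 with progesterone (log2 change -0.29, limma adjusted p = 0.123). Lama2, the alpha chain of muscle laminin, was between 9.66 and 9.94 with oil and between 9.53 and 9.78 with progesterone (limma adjusted p = 0.601). Lama4, the alpha chain of vessel walls, was 9.24, 9.41 and 9.46 with oil and lower on each progesterone array, at 8.58, 9.14 and 8.98. Its log2 change of -0.47 had a limma adjusted p of 0.103, and of 0.0354 with the replicate block. The mean of 6 endothelial markers was 8.15 to 8.52 with oil and 8.02 to 8.15 with progesterone, and 0 of the 6 passed (2 lower with the replicate block). Against that mean on the same array the log2 change of Lama4 was -0.18, and the part of endothelial RNA in its level was not tested.

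Among the beta chains, Lamb3, which is found in laminin-332, was 7.58, 7.81 and 7.41 with oil and 6.59, 6.01 and 7.11 with progesterone. All progesterone arrays lay below the oil arrays but were widely spread, and the log2 level went from 7.60 ± 0.20 to 6.57 ± 0.55 (SD, n = 3). The fall was 2.04-fold (log2 change -1.03 ± 0.26 SE, limma adjusted p = 0.0491). Of the 5 calls this one was lost most often: it ended in 5 of the 6 fits without 1 array, all but that without progesterone replicate 3, with adjusted p up to 0.167, and with 5 other settings, among them quantile normalization (0.0589). Lamb2, common in muscle and vessels, was 8.82, 9.19 and 8.75 with oil and lower throughout with progesterone, at 8.54, 8.67 and 8.02, with a limma adjusted p of 0.153 and of 0.0327 with the replicate block (log2 change -0.51). Lamb1, the usual partner in laminin-111, laminin-411 and laminin-511, did not pass: it was 10.31 to 10.55 with oil and 10.39 to 11.02 with progesterone (limma adjusted p = 0.449).

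Neither measured gamma chain passed. Lamc1, shared by most laminins, was 9.0, 9.09 and 9.33 with oil and 9.09, 9.29 and 9.09 with progesterone, a log2 change of 0.017 ± 0.12 SE (limma adjusted p = 0.956). Lamc3 was 5.33 to 5.54 and 5.33 to 5.81 (limma adjusted p = 0.814). By trimer, then, the chains alpha 3 and beta 3 fell, while alpha 5, beta 1 and gamma 1, which make up laminin-511, did not pass. Over all 10 laminins 1 rose and 2 fell, where 11.7% of all genes passed, with a median log2 change of -0.17, and with the replicate block 1 rose and 4 fell, where 16.1% of all genes passed.

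Itgb4, the laminin-332 receptor chain, was 8.53, 8.85 and 8.11 with oil and 7.48, 7.21 and 7.47 with progesterone. The groups did not overlap. The log2 level went from 8.50 ± 0.37 to 7.39 ± 0.15 (SD, n = 3), a 2.16-fold fall (log2 change -1.11 ± 0.19 SE, limma adjusted p = 0.0139). The call ended without oil replicate 1 (adjusted p = 0.0546) or progesterone replicate 2 (0.0554), with log2 changes of -1.09 and -1.02. Itga6, the only partner of beta 4 and also a partner of beta 1, was 9.59, 9.56 and 10.19 with oil and 9.87, 10.05 and 10.43 with progesterone, with groups that overlapped (log2 change 0.34 ± 0.21 SE, limma adjusted p = 0.389). The difference between Itga6 and Itgb4 on the same array was 1.06, 0.71 and 2.08 with oil and 2.39, 2.84 and 2.96 with progesterone, so it was larger on each progesterone array. In the same way Lama5 minus Lama3 was between -0.81 and -0.04 with oil and between 0.49 and 0.77 with progesterone. Both pairs were chosen after their values were seen, so the differences are a description. An exact permutation test gave p = 0.1 for either pair. That is the smallest value it can give with 3 arrays against 3, so it could not have passed.

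Epithelial markers were compared beside these falls, since Lama3, Lamb3 and Itgb4 are made by epithelium. Of 10 epithelial markers 1 rose (Cldn3, a tight junction protein), 1 fell (Wnt7a, an epithelial Wnt ligand) and 8 did not pass. Of all genes 5.92% rose and 5.83% fell. Of the 8, named after their values were seen, Krt18 was lower on every progesterone array. Its log2 change was -0.76 (limma adjusted p = 0.0589, and 0.0532 with the replicate block). Epcam (-0.46), Krt8 (-0.36), Krt19 (-0.31) and Cdh1 (-0.047) were lower, and Krt7 (0.057), Foxa2 (0.16) and Cldn7 (0.28) higher. The mean of all 10, with Cldn3 (1.15) and Wnt7a (-2.10) among them, was 9.96 to 10.17 with oil and 9.42 to 10.10 with progesterone. The groups overlapped, and progesterone replicate 2 was the lowest. Measured against that mean on the same array, the log2 changes were -1.17 for Lama3, -0.87 for Itgb4 and -0.79 for Lamb3. In RNA of a whole organ, fewer cells of a type and less RNA per cell cannot be told apart.

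**Figure D2:**
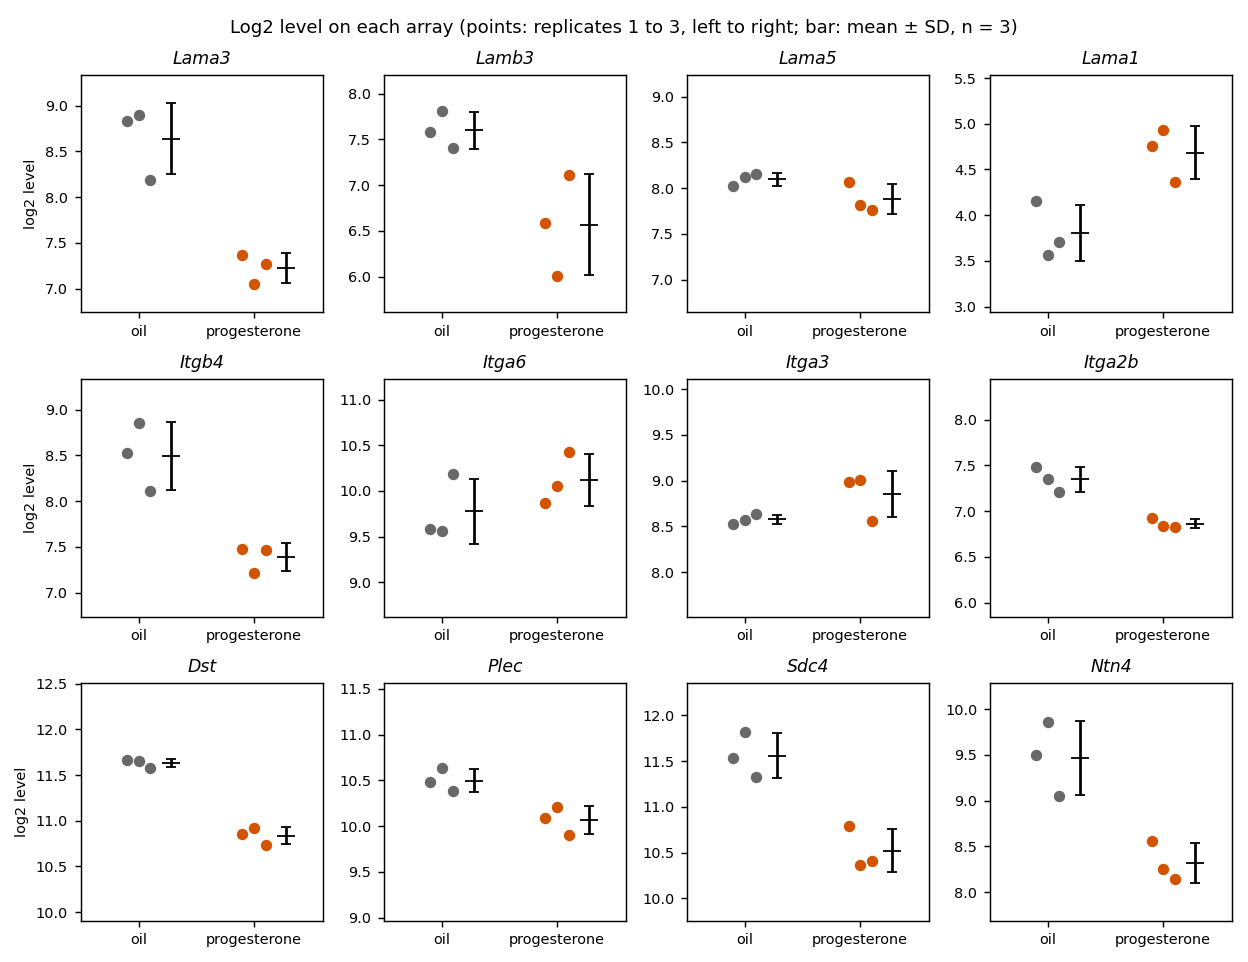
Log2 level (y axis, each panel spanning the same number of log2 units) on each array of 12 genes, with the mean ± SD of each group (n = 3). Lama3, Lamb3, Itgb4, Itga2b, Dst, Plec, Sdc4 and Ntn4 have every progesterone point below every oil point, Lama1 has them above, and the groups of Itga6 (9.56 to 10.19 and 9.87 to 10.43), Itga3 and Lama5 overlap.

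Promoter windows from RefSeq (build GRCm38.p6), the 250 bases before the annotated start, were found for 22 of the 34 genes, with 25 windows. They are shown for Lamb3 and Itga2b, the members that changed and have a window, and for Lama5, a laminin that did not pass. Each is written 5′ to 3′ on the gene's strand with CpG dinucleotides in capitals. That of Lamb3 is at chr1:193301744-193301993, plus strand (its more upstream start), that of Itga2b at chr11:102469884-102470133, minus strand, and that of Lama5 at chr2:180225860-180226109, minus strand.
Lamb3: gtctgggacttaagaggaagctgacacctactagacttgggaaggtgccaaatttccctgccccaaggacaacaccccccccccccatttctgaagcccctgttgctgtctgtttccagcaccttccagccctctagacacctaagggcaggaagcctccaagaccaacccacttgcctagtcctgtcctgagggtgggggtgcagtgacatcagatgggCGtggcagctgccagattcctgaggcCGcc
Itga2b: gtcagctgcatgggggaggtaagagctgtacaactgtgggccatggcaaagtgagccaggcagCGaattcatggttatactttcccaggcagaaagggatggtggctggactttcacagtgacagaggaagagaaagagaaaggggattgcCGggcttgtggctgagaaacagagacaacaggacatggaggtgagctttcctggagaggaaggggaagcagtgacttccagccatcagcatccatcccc
Lama5: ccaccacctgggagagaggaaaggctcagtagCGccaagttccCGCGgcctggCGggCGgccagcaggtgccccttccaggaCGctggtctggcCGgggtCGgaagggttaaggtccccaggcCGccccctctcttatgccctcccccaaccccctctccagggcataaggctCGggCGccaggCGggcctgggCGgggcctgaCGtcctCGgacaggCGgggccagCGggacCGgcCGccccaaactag

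The windows of Lamb3 and Itga2b each hold 2 CpG dinucleotides and that of Lama5 holds 19, where the median over 32851 windows of this table is 6. Of all windows, 29.0% have as few as 2 and 82.1% have no more than 19. Over the 25 windows of member genes the count ranged from 0 to 22, with a median of 10. Members that did not pass also had low counts, with 0 for Lama2 and 2 for Itga10. Motifs were searched on both strands. The full steroid receptor element, AGAACA followed after 3 bases by its reverse complement, was in none of the 25 windows and in 0.00913% of all windows. Its half-site AGAACA, which overlaps the full element, was in 20.0% of member windows (Itga2, Itgax, Itgb1, Itgb7 and Lama2) and in 16.1% of all. A GATA motif (AGATAA as such, with G as its last letter, with T as its first, or with both changes) was in those of Itgax and Itgb7, or 8.0%, against 26.5% of all, and the AP-1 motif TGAGTCA was in that of Itgax, or 4.0%, against 4.46% of all. No match says only that these letters are not in the window.

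The other laminin-binding alpha chains did not pass. Itga3, which pairs with beta 1 and also binds laminin-332 and laminin-511, was 8.53, 8.57 and 8.63 with oil and 8.98, 9.01 and 8.56 with progesterone. Progesterone replicate 3 lay within the oil arrays and the other 2 above them (log2 change 0.27 ± 0.14 SE, limma adjusted p = 0.266). Another probe set of Itga3 was higher on every progesterone array, at 7.27, 7.18 and 7.25 with oil and 7.75, 7.54 and 7.49 with progesterone, and did not pass either (log2 change 0.36, limma adjusted p = 0.0784). Itga7, a muscle laminin receptor, was 6.58 to 6.99 with oil and 6.53 to 7.26 with progesterone (limma adjusted p = 0.954). So of the chains that could receive laminin-332, beta 4 fell and alpha 3, alpha 6 and beta 1 did not pass.

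Itga2b, the alpha chain of the platelet fibrinogen receptor, was 7.48, 7.35 and 7.21 with oil and 6.92, 6.84 and 6.83 with progesterone. It had the smallest spread within groups of the 34 genes (0.10 pooled SD), and its groups did not overlap. The fall was 1.40-fold (log2 change -0.48 ± 0.10 SE, limma adjusted p = 0.0248). This call ended when any of oil replicates 1 and 2 and progesterone replicates 2 and 3 was left out (adjusted p up to 0.0934). Of 5 platelet markers 0 passed, and their mean was 4.45 to 4.78 with oil and 4.60 to 4.85 with progesterone. Ppbp (3.28 to 3.60) and Gp6 (3.79 to 4.12) lay close to background and leave little room to show a lower level. Pf4 was higher, at 5.55 to 7.06. The part of platelet RNA in the level of Itga2b was not tested. Itgb3, the partner of Itga2b, also pairs with alpha V. It was 6.96, 7.12 and 6.58 with oil and 6.91, 7.09 and 6.63 with progesterone, nearly the same values in both groups (log2 change -0.010 ± 0.17 SE, limma adjusted p = 0.983).

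The collagen receptors Itga1, Itga2 and Itga10 did not pass. Itga1 was lower on each progesterone array, at 6.79 to 7.08 against 7.09 to 7.39 with oil (log2 change -0.31 ± 0.12 SE, limma adjusted p = 0.170), and the groups of Itga2 and Itga10 overlapped (limma adjusted p = 0.619 and 0.744). Of the alpha chains that bind the RGD motif of fibronectin and vitronectin, Itgav was between 10.68 and 11.08 on all 6 arrays (limma adjusted p = 0.956), Itga5 went from 6.61 ± 0.076 to 6.85 ± 0.17 (SD, n = 3, limma adjusted p = 0.252), and Itga8 from 7.90 ± 0.026 to 7.67 ± 0.31 (limma adjusted p = 0.422). For Itga8 progesterone replicate 1 alone, at 7.31, was far from the others, which lay between 7.80 and 7.92. Itga9, which binds tenascin and VCAM1, was 7.03, 7.91 and 6.02 with oil and 7.59, 7.36 and 7.86 with progesterone (log2 change 0.62 ± 0.43 SE, limma adjusted p = 0.441). The spread of its oil arrays exceeded the difference between the groups.

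Among the beta chains of tissue cells 1 of 6, Itgb4, passed. Itgb1, the common partner, was 8.91, 9.01 and 9.33 with oil and 8.72, 9.11 and 9.17 with progesterone (log2 change -0.083 ± 0.16 SE, limma adjusted p = 0.821). Itgb5, which pairs with alpha V to bind vitronectin, was 10.41, 10.79 and 10.39 with oil and lower on each progesterone array, at 9.87, 10.23 and 10.16. Its log2 change was -0.44 ± 0.15 SE, with a limma adjusted p of 0.110 and of 0.0398 with the replicate block. All 4 probe sets of Itgb5 were lower, with log2 changes between -0.46 and -0.37. Itgb8, which with alpha V activates latent TGF-beta, was 8.19 to 8.27 and 8.27 to 8.73 (limma adjusted p = 0.290), and Itgb6 was close to background, between 3.39 and 3.75 on all arrays. Over the 18 integrins other than those of white blood cells, 0 rose and 2 fell, where 11.7% of all genes passed, with a median log2 change of -0.053.

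None of the 6 leukocyte integrins passed limma, and none had an unadjusted p under 0.05, where 26.0% of all genes did. Itgb2, the common beta chain of the leukocyte family, was 6.26, 6.84 and 8.18 with oil and 5.91, 7.79 and 8.09 with progesterone. It was lowest on progesterone replicate 1 and highest on oil replicate 3, and its log2 change was 0.17 ± 0.67 SE (limma adjusted p = 0.918). Itgal, the alpha chain of LFA-1 on lymphocytes and other white cells, was 6.41, 6.76 and 7.73 with oil and 5.49, 7.19 and 7.38 with progesterone (log2 change -0.28 ± 0.54 SE, limma adjusted p = 0.821). Itgax, typical of dendritic cells and some macrophages, was 5.44, 5.12 and 6.05 with oil and 4.34, 5.56 and 6.14 with progesterone (limma adjusted p = 0.857). Progesterone replicate 1 was thus the lowest array for each of these chains.

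The remaining leukocyte chains varied less. Itgb7, a chain of gut-homing and intraepithelial lymphocytes, was 5.94 to 6.41 with oil and 5.28 to 6.36 with progesterone. Its partner Itgae, which binds E-cadherin, was 4.39 to 4.73 and 4.24 to 4.75. Itgam, the alpha chain of Mac-1 on neutrophils and macrophages, was measured close to background, at 3.22, 3.44 and 3.90 with oil and 3.16, 3.66 and 3.81 with progesterone, so its probe set leaves little room to show a lower level. The pooled SD within groups had a median of 0.60 over these 6 genes, 0.23 over the other 18 integrins, 0.23 over the laminins and 0.15 over all genes.

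Of the leukocyte integrins, Itgb2 and Itgal moved between arrays most nearly with the markers of white blood cells. The difference between Itgb2 and the mean of the 6 general markers stayed between -1.05 and -0.76 on every array, while both ranged over more than 2 log2 units, and that of Itgal stayed between -1.59 and -0.85. The difference varied more for Itgax (-3.13 to -1.82), Itgb7 (-2.71 to -1.27), Itgam (-5.16 to -3.52) and Itgae (-4.25 to -2.44), whose own levels spanned less than the markers did. This is a description over 6 arrays, on each of which all these genes were read from the same RNA. Itga4, which pairs with beta 1 or beta 7 and occurs on lymphocytes as well as stromal cells, was 6.50, 7.00 and 7.20 with oil and 5.78, 7.11 and 7.05 with progesterone (limma adjusted p = 0.748), with its lowest value also on progesterone replicate 1. Of their endothelial ligands, named after their values were seen, Vcam1 was 5.46, 6.16 and 8.99 with oil and 5.14, 6.85 and 7.70 with progesterone, and Icam1 was 6.79, 7.17 and 8.70 and then 7.04, 8.06 and 8.46 (limma adjusted p = 0.898 and 0.808). Both were high on oil replicate 3 and on progesterone replicates 2 and 3. Icam2 and Madcam1, from the same list, did not share this order. Icam2 was 7.17, 7.58 and 7.52 with oil and 8.07, 8.17 and 7.59 with progesterone (limma adjusted p = 0.120). Madcam1, nearer background, was 3.74, 3.84 and 4.22 with oil and 3.87, 3.82 and 4.38 with progesterone (limma adjusted p = 0.836).

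**Figure D3:**
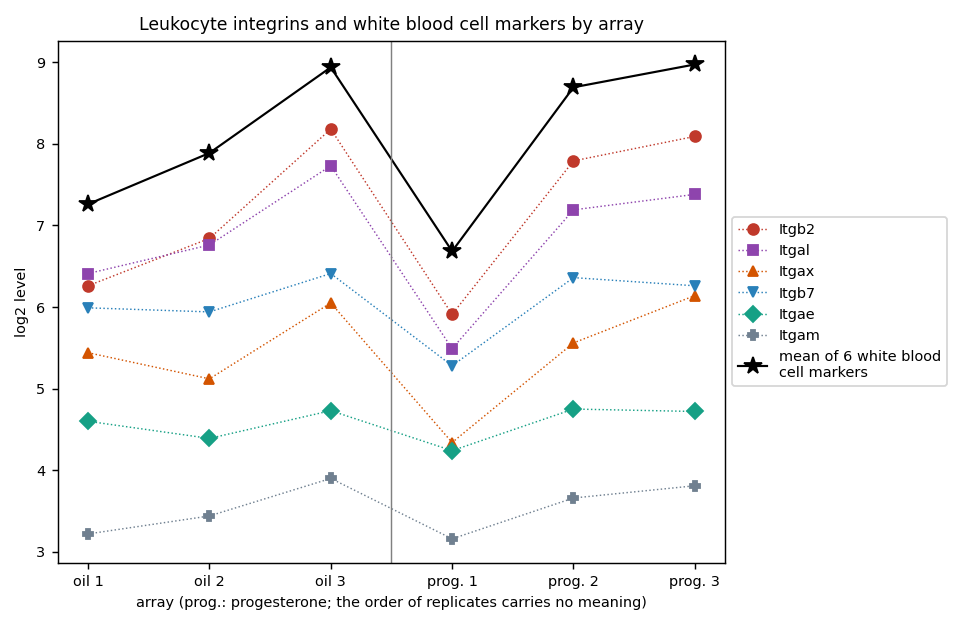
Log2 level (y axis) of the 6 leukocyte integrins and the mean of 6 white blood cell markers (black stars) on each array (x axis), where lines only join the points of a gene. Each of the 6 integrins has its 3 highest points on oil replicate 3 and progesterone replicates 2 and 3, as the markers do, and Itgb2 runs from 5.91 to 8.18 in step with the markers.

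The proteins around integrins and laminins were counted in 4 lists, to be read against 5.92% of all genes higher and 5.83% lower. Counts with the replicate block are to be read against 7.6% of all genes higher and 8.49% lower. Of 11 laminin receptors other than integrins and parts of the hemidesmosome, 0 rose, 3 fell and 8 did not pass, with a median log2 change of -0.43, and with the replicate block 5 fell. Dst, dystonin, which ties beta 4 to keratin in epithelium and also serves muscle and nerve, was 11.66, 11.65 and 11.58 with oil and 10.85, 10.92 and 10.74 with progesterone. Its arrays lay tightly together within each group, and the fall was 1.73-fold (log2 change -0.79 ± 0.090 SE, limma adjusted p = 0.00401). Sdc4, syndecan 4, a heparan sulfate proteoglycan that works with integrins at focal adhesions, fell 2.05-fold (limma adjusted p = 0.0111), from 11.33 to 11.82 with oil to 10.37 to 10.79 with progesterone. Both calls held in 6 of 6 fits without 1 array. With the mean of its probe sets the log2 change of Dst was -0.37 (limma adjusted p = 0.0268). Sgce, epsilon-sarcoglycan, fell 1.45-fold (limma adjusted p = 0.0479), a call that held only without oil replicate 3 among those fits (adjusted p up to 0.156).

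Among the other hemidesmosome proteins, named after their values were seen, Plec, plectin, was 10.48, 10.63 and 10.38 with oil and lower on each progesterone array, at 10.09, 10.21 and 9.90. Its limma adjusted p was 0.0582, and 0.0262 with the replicate block. Col17a1, the transmembrane collagen BP180, was low, at 4.19 to 4.82 with oil and 3.73 to 4.22 with progesterone (limma adjusted p = 0.133). Cd151, a tetraspanin that binds the laminin-binding integrins, was 10.40 to 10.65 and 10.38 to 10.58 (limma adjusted p = 0.971). Of the chains and anchors of the hemidesmosome, then, Lama3, Lamb3, Itgb4 and Dst fell, and Itga6, Plec, Col17a1 and Cd151 did not pass. Since Dst also serves muscle and nerve, the part of epithelial RNA in its level was not tested.

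Of 25 other basement membrane genes 2 rose, 4 fell and 19 did not pass, with a median log2 change of -0.053. Ntn4, netrin 4, a laminin-binding protein that hinders laminin networks, was 9.50, 9.86 and 9.05 with oil and 8.56, 8.25 and 8.14 with progesterone, a 2.22-fold fall (limma adjusted p = 0.0176) that lost its call when any of oil replicates 1 and 2 and progesterone replicates 2 and 3 was left out (adjusted p up to 0.0659). Frem2, of the Fraser complex beneath epithelia, fell 2.17-fold (limma adjusted p = 0.0125), in 6 of 6 fits without 1 array. Npnt, nephronectin, the ligand of the alpha 8 beta 1 integrin, fell 1.73-fold from 8.81 to 8.02 (limma adjusted p = 0.0168), a call that ended without oil replicate 2 or progesterone replicate 2, and with the mean of its probe sets (log2 change -0.34, adjusted p = 0.240). Col15a1, a collagen of vessel and muscle basement membranes, rose 2.07-fold from 8.18 to 9.23 (limma adjusted p = 0.0230), a call that ended without any one of the same 4 arrays as for Ntn4. The other 2 that passed, named after their values were seen, were Smoc1, a matricellular protein, which rose (log2 change 0.61), and Col4a4, a collagen IV chain, which fell (-0.60), and either call held in 1 of 6 fits without 1 array. With the mean of probe sets Col4a4 did not pass (-0.37, limma adjusted p = 0.0750). Several common basement membrane components, also named afterwards, did not pass: Nid1, Hspg2, Col4a1 and Col4a2 had log2 changes between -0.20 and 0.26.

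Of 33 proteins that join integrin tails to actin or signal from them, 1 rose, 2 fell and 30 did not pass. Their median log2 change was -0.083. With the replicate block 3 rose and 3 fell, where 7.6% of all genes rose and 8.49% fell. Fermt1, Ptk2 and Nedd9 were listed but not analysed here. Parva, alpha-parvin, which links integrin-linked kinase to actin, fell 1.62-fold, from 10.61 to 10.67 with oil to 9.84 to 10.12 with progesterone (log2 change -0.70 ± 0.10 SE, limma adjusted p = 0.00905). Tns3, tensin 3, fell 1.29-fold (limma adjusted p = 0.0385) and lost its call in each of the 6 fits without 1 array and with the mean of its probe sets (log2 change -0.18, adjusted p = 0.284). Cd9, an integrin-associated tetraspanin, rose 1.39-fold (limma adjusted p = 0.0384) and kept its call only without oil replicate 2. Among integrin ligands, Spp1, Cyr61, Ctgf and Nov were listed but not analysed here. Of the 23 analysed, 0 rose and 1 fell, with a median log2 change of -0.19. This was Tgfbi, a matrix protein bound by integrins of several kinds, which fell 2.45-fold, from 13.26 ± 0.28 to 11.97 ± 0.30 (SD, n = 3, limma adjusted p = 0.00947), in 6 of 6 fits without 1 array.

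**Figure D4:**
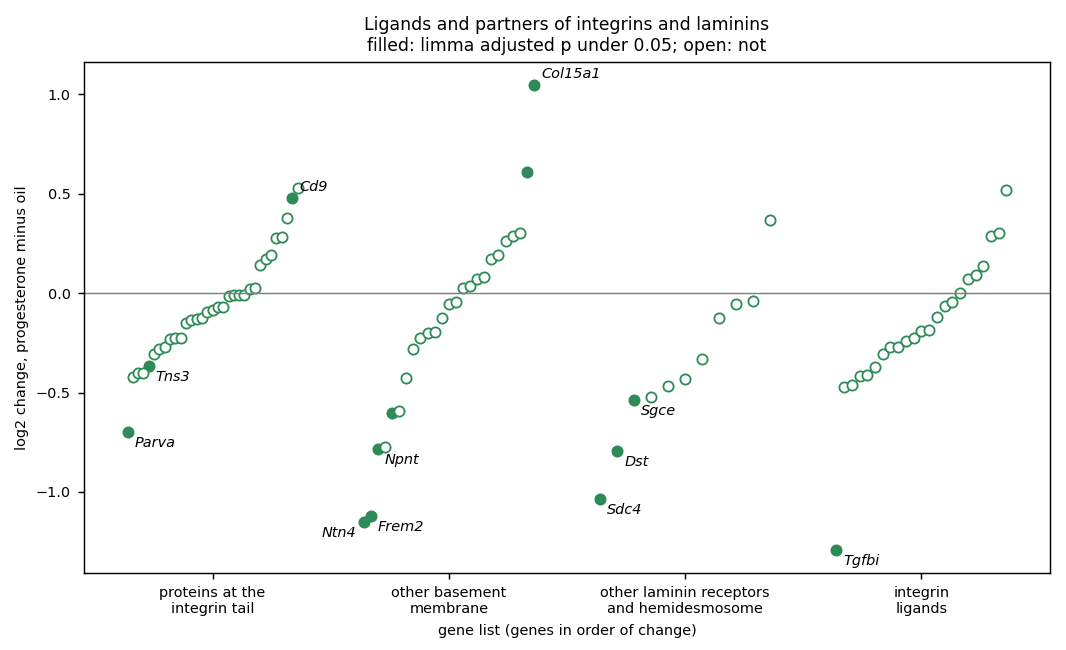
Log2 change (y axis, progesterone minus oil) of each gene in 4 lists of proteins that work with integrins and laminins (x axis, genes in order of change), filled where the limma adjusted p was under 0.05. Filled points lie mostly below 0, with Tgfbi (-1.29), Ntn4 (-1.15), Frem2 (-1.12) and Sdc4 (-1.04) lowest and Col15a1 (1.05) highest.

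Other probe sets were present for 20 of the 34 genes, and the 73 probe sets were also fitted one by one among all 34945. Of the 73, 6 passed, beside 8.99% of all: the 5 described and 1 of Itgb5 (limma adjusted p = 0.0449). Itgb4, Lamb3, Lama1 and Itga2b each had a single probe set. The other probe set of Lama3 was between 3.54 and 3.93 on all arrays, close to background, with a log2 change of 0.12, so the fall of Lama3 rests on 1 probe set. Both probe sets of Itga6 were higher, by 0.34 and 0.55, and the second had an adjusted p of 0.135 in limma and of 0.0212 with the replicate block. Another probe set of Itga9, at 4.57, 4.50 and 4.84 with oil and 4.93, 5.45 and 5.44 with progesterone, had groups apart (limma adjusted p = 0.0583, and 0.0254 with the replicate block), unlike the one used.

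**Figure D5:**
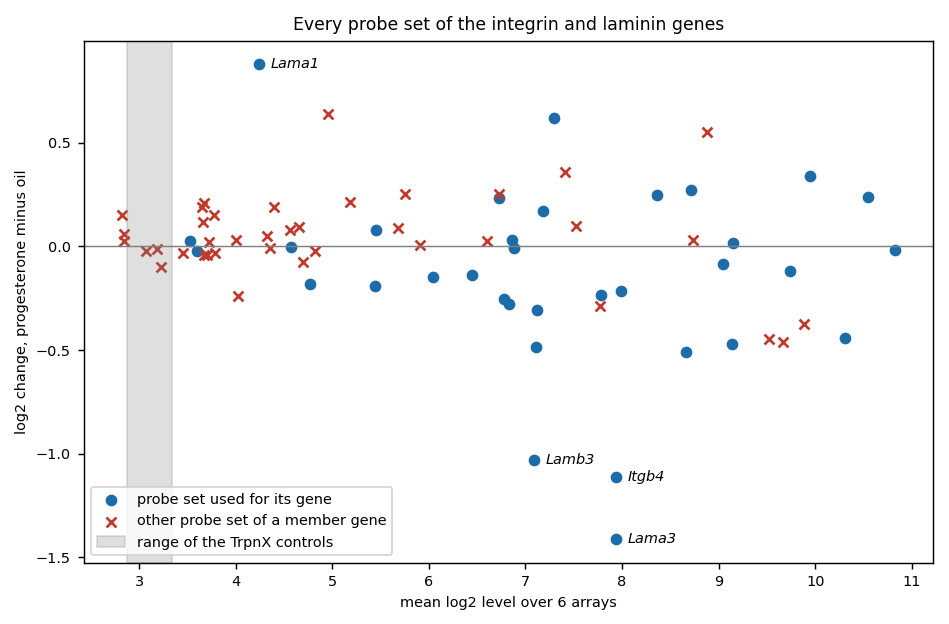
Log2 change (y axis) against mean log2 level over the 6 arrays (x axis) for all 73 probe sets of the 34 genes, with dots for the probe set used and crosses for the others, and the range of the TrpnX controls shaded (2.87 to 3.34). Many of the crosses lie at low levels near a change of 0, and the dots of Lama3, Itgb4 and Lamb3 lie lowest, at mean levels well above the controls.

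Without oil replicate 3 and progesterone replicate 3 together, a choice made after seeing the data, 3 members fell and 0 rose: Lama3 (log2 change -1.66, limma adjusted p = 0.00969), Lamb3 (-1.40, 0.0301) and Itgb4 (-1.35, 0.0185). Without the 3 arrays highest in white blood cell markers, which leaves 2 oil arrays and 1 progesterone array, none of 18193 genes passed limma, and 3379 had an unadjusted p under 0.05, 13 of them members. There the lone progesterone array is assumed to vary like the oil arrays. The log2 changes were then -1.50 for Lama3, -1.21 for Itgb4 and -1.11 for Lamb3, with adjusted p of 0.147, 0.179 and 0.174. With a single progesterone array these values show no spread of that group.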

How the data were processed

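Biotinylated cRNA was hybridised to 6 Affymetrix arrays, and the values the authors deposited are on the log2 scale, for 45101 probe sets, made with Partek 6.6 and RMA per the submitters' processing notes. RMA settings, detection calls and the genome build are not given in the sources used here. Of the probe sets, 34945 had 1 gene symbol in the platform annotation, 932 had several, 9160 had none and 64 were controls. Gene identifiers of 34741 matched RefSeq (GRCm38.p6), with 0 symbols changed. A gene with several probe sets was represented by the one of highest mean level, which gave 18193 genes.

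Groups came from the labels. The fit used lmFit and eBayes of limma 3.58.1 (R 4.3.3) without filter or block. Its two-sided p-values were adjusted by Benjamini-Hochberg over the 18193 genes, and 0.05 was the threshold. The procedure was tested on simulated data. The integrins and laminins, the gene lists and the alternatives were chosen with earlier results of these data known. All members could be named, as could up to 4 passing genes of each list and 3 of each marker list, the top marker of each white blood cell list, and Gata2, Pgr and Il13ra2.

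Both groups carry replicate numbers 1 to 3. Across genes, the deviations of oil and progesterone arrays of one number from their group means had correlations of 0.523, 0.141 and 0.636. All exceed 0.1, the limit of a fixed rule for pairing, although oil replicate 2 correlated more with progesterone replicate 1 (0.322) than with progesterone replicate 2. That the numbers pair the arrays is a hint from the data and not stated in the labels. The main fit therefore has no block, and the fit with the replicate block is given beside it as an alternative. The number of arrays limits the precision.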

Additional observations from a re-analysis of the deposited data

How the results depend on the processing

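The number of arrays, 3 a group, limits most calls, and levels near the TrpnX controls limit Lama1, Itgb6 and Itgam. Leaving out 1 array at a time gave 379 to 848 genes higher and 278 to 907 lower in all (1077 and 1060 with every array), 0 to 2 of the other integrins lower (2), 0 to 1 laminin higher (1), 1 to 2 laminins lower (2), and, in the 4 partner lists, 0 to 2 genes higher (3) and 5 to 8 lower (10). Laminins higher were 0 with an offset of 32 before log2 (Lama1 0.33, adjusted p = 0.0587) and with the lowest 50% of genes left out, where Lama1 was not tested. Laminins lower were 1, through the loss of Lamb3, with quantile normalization (limma adjusted p = 0.0589), centred array medians (0.0513), the offset (0.0640), the mean of probe sets (0.0508) and robust eBayes (0.0559). With the mean of probe sets the partner genes lower were 7, through the loss of Npnt, Tns3 and Col4a4. With the replicate block laminins lower were 4 and partner genes higher 5, and beyond Itgb5, Lama4 and Lamb2 the block changed no call among the 34 genes. Of the leukocyte integrins 0 were called in every setting run.

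Without oil replicate 3 and progesterone replicate 3 together there were 586 genes higher and 441 lower, 1 of the other integrins lower, 0 laminins higher, and 1 partner gene higher and 5 lower. Without the 3 arrays highest in white blood cell markers all these counts were 0. Both settings were chosen after seeing the data.

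Changes in sign among the 34 genes were limited to log2 changes that passed no test. When 1 array was left out, Itga10 ranged from -0.31 to 0.018, Itga2 from -0.36 to 0.010, Itga4 from -0.48 to 0.18, Itga7 from -0.16 to 0.20, Itgae from -0.095 to 0.16, Itgal from -0.63 to 0.32, Itgam from -0.13 to 0.21, Itgav from -0.11 to 0.10, Itgax from -0.59 to 0.31, Itgb1 from -0.17 to 0.057, Itgb2 from -0.25 to 0.85, Itgb3 from -0.16 to 0.11, Itgb6 from -0.14 to 0.062, Itgb7 from -0.34 to 0.20, Lamc1 from -0.053 to 0.11 and Lamc3 from -0.078 to 0.16. Quantile normalization turned Itgae (0.00056), Itgb3 (0.011) and Lamc1 (-0.0050), centring turned Itgae (0.010) and Itgb3 (0.0033), and the offset turned Itgae (0.0015). The mean of probe sets turned Itgav (0.047), Itgb1 (0.020) and Itgb3 (0.090). Without the replicates numbered 3, Itgav (0.015) and Itgb6 (0.105) turned, and without the 3 arrays Itga10 (0.27), Itga7 (-0.145), Itgam (-0.17), Itgb2 (-0.64) and Itgb6 (0.14) did. The cause was not tested. With the mean of probe sets Lama3 changed by -0.65 (limma adjusted p = 0.0198), since its other probe set lies near background.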
